A study of Nicrophorus vespilloides with 24 samples.

Results

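Among the loci measured in heads of the burying beetle Nicrophorus vespilloides, 100 were chosen because their read counts were higher in caring females than in control females when the male partner stayed, and lower in caring than in control females when he had been removed. A locus is a group of assembled transcript contigs, named here as in the deposited counts. For each locus the change was the mean of log2(normalised read count + 1) in caring females minus that in control females, where a normalised read count is the count divided by the median-of-ratios size factor of its library. Loci with a mean normalised read count of at least 20, a change of at least 0.3 in biparental females and a change of at most −0.3 in uniparental females qualified, and the 100 with the largest biparental minus uniparental change were kept. They came from 311 loci that met both limits, from 8491 with enough reads and from 11403 measured in all. The opposite pattern, lower in caring biparental and higher in caring uniparental females, was met by 184 loci, and 1395 loci changed by 0.3 or more in the same direction under both conditions. These female changes chose the loci, so they are described here and not tested. The size factors and the mean for the read limit used all 24 libraries, males and post-caring beetles included. Over the 12 female libraries 14 of the 100 loci averaged under 20 normalised reads, so they passed that limit only through the males.

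The libraries came from 12 groups: males and females, in biparental or uniparental social conditions, in the control, caring or post-caring state, with 2 libraries per group. Caring beetles had a mouse carcass and were taken from it while near their larvae. After removal each beetle was kept alone for a day before its head was collected, so no library was made from beetles still in contact with larvae. Control beetles had been housed and mated with a partner but had no carcass, and post-caring beetles had raised larvae and left them. In the uniparental groups the mate was removed and in the biparental groups both parents stayed, and each social condition had control and post-caring groups of its own. All beetles were 21 days past adult eclosion and each library pooled 10 of them, so a library is a pool and not an animal. The labels call the tissue brain, while the methods describe whole heads that were mainly brain with head fat body and connective tissue.

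Burying beetles bury small carcasses, strip and preserve them with oral secretions, and feed the begging larvae with predigested food. One parent or both may do this work. Insect heads also hold the muscles that move the mandibles, antennae and feeding pump. Their contraction depends on thick filaments of myosin, on thin filaments regulated by tropomyosin and troponin, and on giant titin-like proteins such as kettin and projectin that tie the filaments to the Z disc. Tissue from these muscles contributes RNA to any head library.

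Over the 100 loci the change was 0.31 to 2.93 with a median of 0.92 in biparental females, and −2.69 to −0.34 with a median of −0.99 in uniparental females. The medians over all 8491 loci were −0.01 and −0.01. The difference between the changes was 1.45 to 5.23, with a median of 1.81. The last locus taken, Locus_37309, had a difference of 1.45 and the first not taken, Locus_1596, had 1.43. At the biparental limit Locus_48966 had a change of 0.31 and Locus_68316, left out, had 0.2995. At the uniparental limit Locus_C854937 had a change of −0.34 and Locus_C895738, left out, had −0.299. At the read limit Locus_C832826 had a mean of 20.6 normalised reads and Locus_C812388, left out, had 19.8.

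Only some of these loci can be given a protein name here. The study kept contigs with a significant blast hit to an arthropod, and the 100 loci had 97 distinct top hits. A description of the hit was available only for loci that the study called changed on these same libraries, so having one is itself a sign of a change. It covers 55 of the 100 loci, 1 of them through a top hit it shares with another locus. The other 54 are on the study's list of changed loci, which holds 653 of all 8491 loci. Both choices used the same libraries, so nothing is read from that excess. Of the 55 descriptions 22 name only a hypothetical, unknown or unnamed product or a genome sequence. Among the rest were 9 loci of muscle proteins, 3 of ribosomal proteins, 2 of cuticle proteins and 2 of chitinases. The loci were also sparser than most, with a median mean count of 162 normalised reads, against 335 over all 8491 loci, and 30 of the 100 lay under 50 reads, against 10.5% of all loci. A single contig made up 91 of the 100 loci, against 68.4% of all loci. Loci of 1 contig may be fragments of a transcript, and 3 of the muscle loci shared 1 top hit.

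Library totals were 14647691 to 18156673 reads in the 12 biparental libraries and 16131079 to 23906173 in the 12 uniparental ones. The share of loci with a fractional count was 33.3% to 38.2% in biparental libraries and 40.4% to 48.9% in uniparental libraries, with no overlap. Social condition and any difference in how those libraries were made or sequenced cannot be told apart, since each library belongs to 1 condition. The share also separated caring from control females within a condition, at 37.1% to 38.2% in caring biparental females, against 33.5% to 34.2% in their controls, and at 46.3% to 48.9% in caring uniparental females, against 42.1% to 42.6% in their controls. Its part in the female changes was not tested. Fat body transcripts, a list of 18 yolk and storage protein loci with none among the 100, summed to 81640 to 94269 CPM (counts scaled to a common library total) in caring biparental females, against 355303 to 395793 in their controls. In caring uniparental females they summed to 55756 to 57217, against 219916 to 223420 in their controls. This sum was lower in caring females under both conditions, and its part in the opposite changes was not tested. The sum of 5 photoreceptor loci was 1930.0 to 4001 CPM in caring biparental females, against 722 to 2840 in their controls, which overlap, and 10697 to 13171 in caring uniparental females, against 1312 to 2350 in their controls. At least 4 of the 5 had reads in every library, and the part of eye tissue in the changes of uniparental females was not tested. Replicate 1 of caring biparental females and replicate 2 of uniparental control females stood apart from their partner libraries at several of the 100 loci. The number of loci meeting both limits, and the changes at some named loci, are given with and without them.

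**Figure D1:**
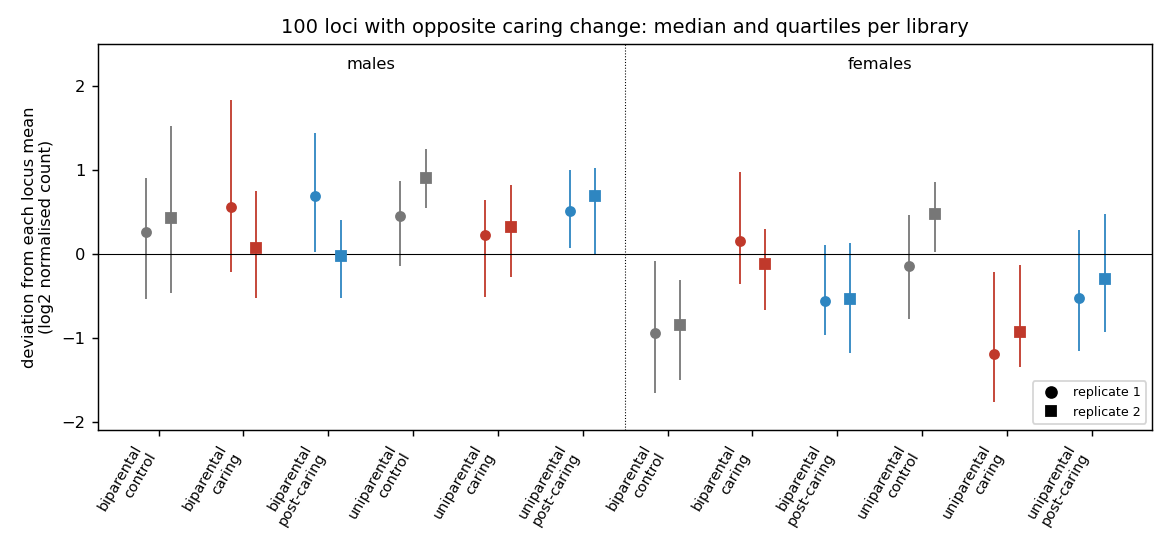
Each point is a library, placed at the median over the 100 loci of its deviation from each locus mean on the log2 normalised count scale, with bars from the lower to the upper quartile. Circles are replicate 1 and squares replicate 2, grey is control, red is caring and blue is post-caring. Caring biparental females lie at 0.15 and −0.12 and their controls at −0.94 and −0.85, while caring uniparental females lie at −1.19 and −0.93 and their controls at −0.15 and 0.48.

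The opposite changes in females came with gaps between the social conditions in both states. The biparental minus uniparental gap in level was above 0 in caring females at 72 of the 100 loci, with a median of 1.13, and below 0 in control females at 77 loci, with a median of −0.97. Both held at 49 loci. At 23 loci the level was higher in biparental females in both states, and at 28 it was lower in both, so that only the size of the gap changed. The control gap was the larger of the gaps at 46 loci. Over all loci the median gaps were 0.03 in caring and 0.03 in control females. After caring the median gap of the 100 loci was −0.01 in females, and 50 of them were higher in biparental females. These gaps add up to the measure that chose the loci and are given as a description.

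**Figure D2:**
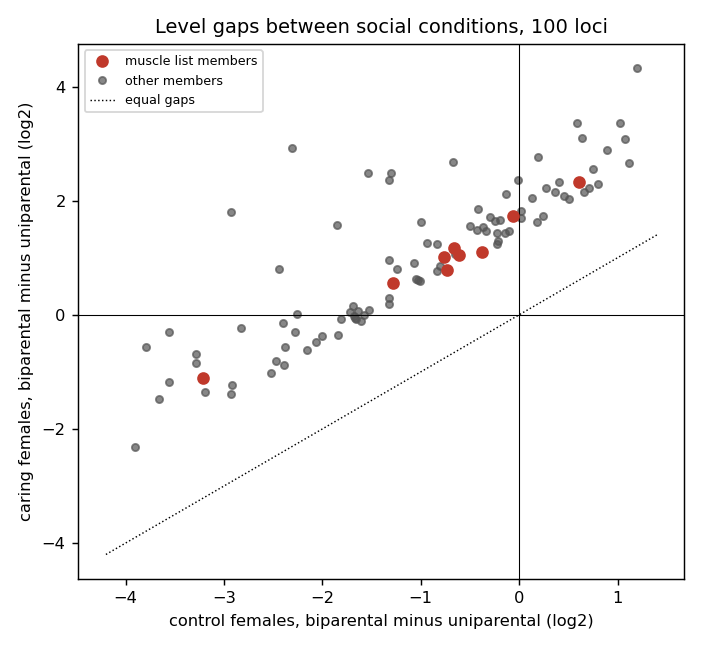
Each point is 1 of the 100 loci, placed by the biparental minus uniparental difference in log2 normalised count in control females on the horizontal axis and in caring females on the vertical axis. Muscle loci are red, and the dotted line marks equal gaps, which the choice of loci keeps every point above; 49 loci lie in the upper left, where caring females were higher and control females lower under biparental conditions.

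Libraries of caring and control females did not overlap at 62 of the 100 loci in biparental females, with caring above control, where 26.8% of all 8491 loci did so. In uniparental females caring lay below control without overlap at 83 loci, where 32.1% of all loci did so, and both held at 57 loci, against 5.62% of all loci. In the edgeR quasi-likelihood fit over all 24 libraries with Benjamini-Hochberg adjustment, 16 of the 100 were called higher in caring than control biparental females, where 5.01% of the 9648 loci tested were, and 34 were called lower in caring uniparental females, where 7.55% were. All 100 loci passed the filter on low counts. These counts restate the choice of loci and nothing is read from them.

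The largest differences rested on single libraries. Locus_C888540 had 8056 and 177 normalised reads in caring biparental females, against 280.4 and 149 in their controls, and 106 and 234 in caring uniparental females, against 215 and 4808 in their controls. Only replicate 1 of the caring biparental females and replicate 2 of the uniparental controls were high, and the groups overlapped in both conditions. Locus_47043 had 792 and 25.5 normalised reads in caring biparental females, against 20.7 and 18.8 in their controls, and 35.4 and 46 in caring uniparental females, against 36.8 and 654 in their controls. The same 2 libraries were high, and caring and control uniparental females overlapped. Both loci encode hypothetical proteins, and their changes were 2.54 and 2.81 in biparental females and -2.69 and -1.93 in uniparental females.

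The third largest, Locus_51169, had 239 and 14.5 normalised reads in caring biparental females, against 15.5 and 2.89 in their controls. In caring uniparental females it had 5.11 and 18.4, against 1.8 and 192 in their controls. Replicate 1 of caring biparental females and replicate 2 of uniparental controls again stood above all the other caring and control female libraries. Locus_6650, similar to a putative glycine-rich protein, had 478 and 5.19 in caring biparental females, against 12.9 and 4.34 in their controls, and 46 and 94.6 in caring uniparental females, against 37.7 and 264 in their controls. Its groups overlapped in both conditions. Locus_49207 had 56.9 and 10.4 in caring biparental females, against 11.6 and 5.79 in their controls, and 2.19 and 5.56 in caring uniparental females, against 7.18 and 63.1 in their controls. Its uniparental groups did not overlap, but control replicate 1 lay close to the caring libraries.

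At 12 of the 100 loci either replicate 1 of caring biparental females or replicate 2 of uniparental control females exceeded its partner library by more than 2 on the log2 scale, and at 6 loci both did. Replicates lay that far apart in caring biparental females at 10 of the 100 loci, against 0.424% of all loci, and in uniparental control females at 9, against 0.283%. Biparental control females had 11 such loci, against 0.695% of all loci, and replicate 1 was the higher at 10 of the 11. The 12 loci were picked from their values. All 12 had higher post-caring means in males than in females under both conditions, but 5 of them passed the read limit only through the males, so part of that direction is fixed by the choice of loci. They included Locus_35286, Locus_3367, Locus_36476, Locus_49441, Locus_14286, Locus_70456 and Locus_25912 beside the 5 above. Locus_35286 had a count of 0 in 1 biparental control library, where a count of 0 allows up to 3 reads, so its change of 2.83 depends on the 1 added before the logarithm.

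With both of those libraries left out, a setting added after the values were seen, 254 loci met both limits and 54 of the 100 were among them. The biparental limit was lost by 24 loci, 11 of which turned negative, and the uniparental limit by 27, 9 of which turned positive. Of the 10 loci with the largest differences 4 still met both limits: Locus_C829590, Locus_17764, Locus_C805825 and Locus_C817618. Without them the changes of Locus_C888540 were -0.21 in biparental and -0.45 in uniparental females, and those of Locus_51169 were 0.95 and 1.96. With each of the 8 caring and control female libraries left out in turn, 37 of the 100 loci met both limits every time. Without biparental control replicate 1 alone 77 of the 100 met them. Without replicate 1 of caring biparental females alone 76 did, and without replicate 2 of uniparental controls alone 73 did. The 54 loci above were found with biparental control replicate 1 kept in. Why any of these libraries differed from its partner was not tested.

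**Figure D3:**
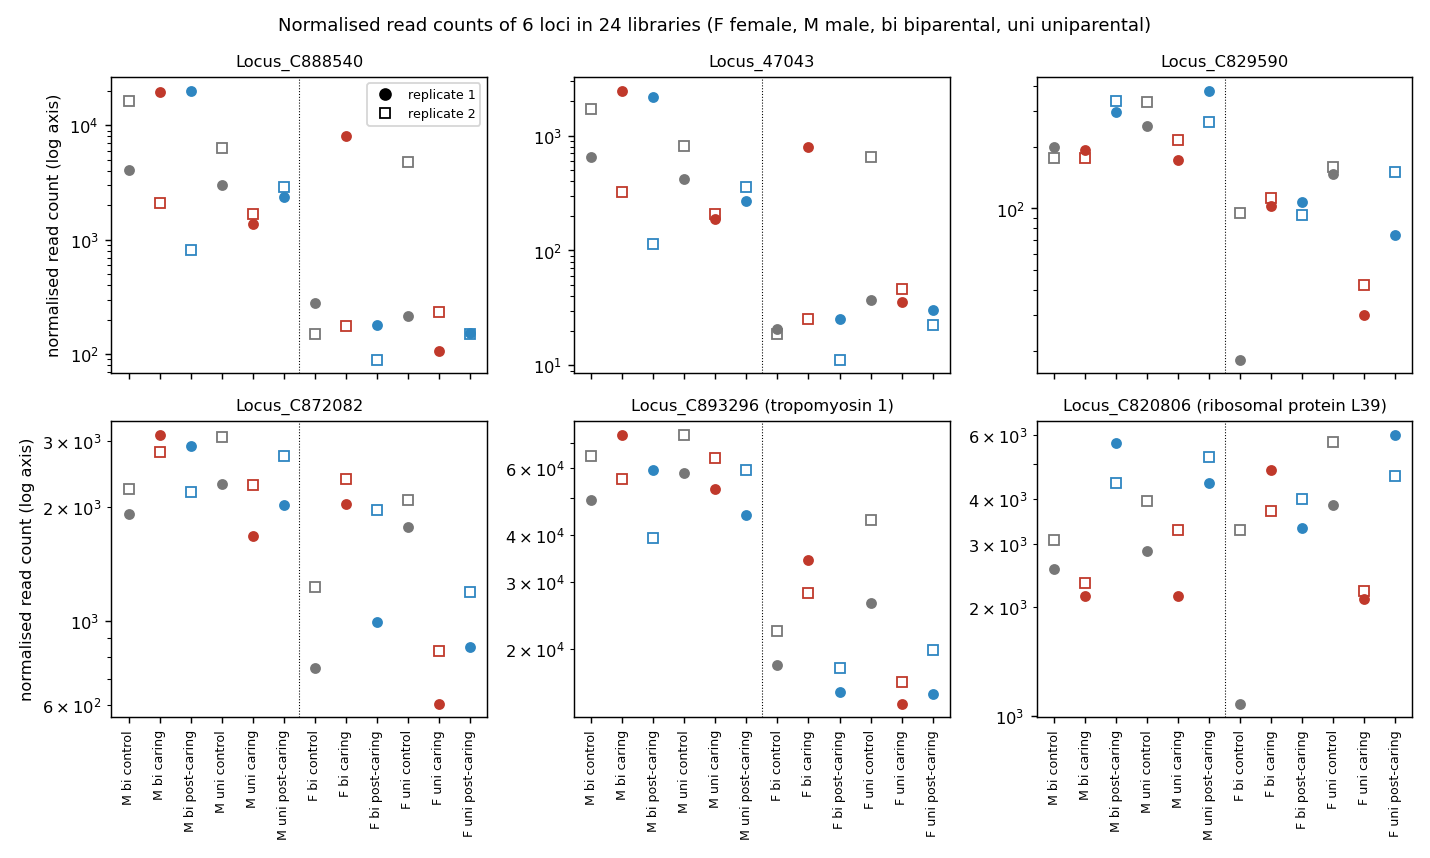
Normalised read counts of 6 loci, on a log axis, in the 24 libraries, with males (M) on the left and females (F) on the right of each panel, biparental (bi) before uniparental (uni). Filled circles are replicate 1, open squares replicate 2, grey control, red caring and blue post-caring; in Locus_C888540 and Locus_47043 a single caring biparental and a single control uniparental female library reach male levels.

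Among the 4 loci of the 10 that did not turn on those libraries, Locus_C829590 encodes a hypothetical protein. Locus_C829590 had 103 and 112 normalised reads in caring biparental females, against 18.1 and 95.5 in their controls, and 29.9 and 42.3 in caring uniparental females, against 148 and 160.4 in their controls. Caring and control libraries did not overlap in either condition. Biparental control replicate 2 lay close to the caring libraries, and only control replicate 1 lay far below them. Locus_C805825 is similar to a LIM domain protein, a family that binds actin and signalling proteins. Locus_C805825 had 5.67 and 21.8 normalised reads in caring biparental females, against 3.88 and 2.89 in their controls, and 5.11 and 7.23 in caring uniparental females, against 26 and 19.7 in their controls. The groups did not overlap, at counts that are low in all 8 libraries. The mean of Locus_C805825 over the 12 female libraries was 14.7 normalised reads, so it passed the read limit only through the males. Locus_C817618, which encodes a hypothetical protein, had 15.9 and 81 normalised reads in caring biparental females, against 2.58 and 10.1 in their controls, and 56.9 and 51.2 in caring uniparental females, against 81.7 and 91.1 in their controls. Its levels were lower in biparental than uniparental females in both states except for caring biparental replicate 2.

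Muscle proteins made up 9 of the 100 loci, from a list of 62 measured muscle loci that was drawn from the study's changed loci and so is not independent evidence of a direction. Its troponin, myosin and tropomyosin loci had the highest mean counts of the 100. Locus_C910360, similar to upheld, the Drosophila troponin T, had 237389 and 174591 normalised reads in caring biparental females, against 145282 and 172119 in their controls, and 91712 and 106285 in caring uniparental females, against 187059 and 312181 in their controls. Locus_C897366, similar to myosin light chain, had 112330.0 and 105061 normalised reads in caring biparental females, against 73972 and 94358 in their controls, and 48246 and 53682 in caring uniparental females, against 79828 and 146780.0 in their controls. Locus_C893296, a tropomyosin 1, had 34288 and 28147 normalised reads in caring biparental females, against 18125 and 22300.3 in their controls, and 14345 and 16429.9 in caring uniparental females, against 26529 and 43887 in their controls. At these 3 loci caring lay above control in biparental females and below control in uniparental females without overlap, but at Locus_C910360 biparental caring replicate 2 lay just above the higher control. The changes were 0.36, 0.38 and 0.63 in biparental females and -1.29, -1.09 and -1.15 in uniparental females. In pooled heads, fewer cells of a type and less RNA per cell cannot be told apart.

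The other muscle loci were similar to kettin, projectin, muscle-specific protein 300 and flightin. Locus_C856308, similar to kettin, a titin-like protein of the Z disc, had 157 and 143 normalised reads in caring biparental females, against 68.5 and 127 in their controls, and 273 and 385 in caring uniparental females, against 876 and 876 in their controls. Every biparental library lay below every uniparental one, so the opposite changes took place around different levels. Locus_20998 and Locus_C900064 share its top hit, with changes of 0.44 and 0.49 in biparental and -1.39 and -1.04 in uniparental females. Locus_C861118, similar to projectin, had changes of 0.38 and -1.48, and Locus_C887210, similar to muscle-specific protein 300, a nuclear anchoring protein in Drosophila muscle, had 0.33 and -1.38. Locus_C879690, similar to flightin, a thick filament protein of flight muscle in Drosophila, had 6171 and 4121 normalised reads in caring biparental females, against 4001 and 4040.3 in their controls, and 1531 and 1516 in caring uniparental females, against 3275 and 5363 in their controls. Caring biparental replicate 2 lay just above its controls, whereas both caring uniparental libraries were below both controls.

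Whether the muscle list as a whole shared the opposite pattern depended on the scale. On the normalised scale all 62 measured muscle loci were lower in caring uniparental females, with a median of −1.29, while 33 were higher in caring biparental females, with a median of 0.01. The 53 muscle loci outside the 100 had medians of −0.03 in biparental and −1.28 in uniparental females. As sums of CPM the pattern was present, but CPM are shares of a library total and rise where other transcripts fall. The fat body sum was lower in caring than in control females under both conditions. In biparental females it was 81640 to 94269 CPM, against 355303 to 395793 in their controls. Its part in the muscle sums was not tested. Summed over 66 muscle loci, CPM were 134475 to 166612 in caring biparental females, against 102304 to 102437 in their controls. In caring uniparental females they were 79758 to 88198, against 113367 to 152982 in their controls. The 57 muscle loci outside the 100 summed to 114345 to 142025 CPM in caring biparental females, against 90646 to 91281 in their controls, and to 65905 to 72350.4 in caring uniparental females, against 95126 to 127779 in their controls. On the normalised scale the sum of these 57 loci was 1878750 to 2358770 in caring biparental females, against 2091350 to 2380830 in their controls, which overlap. Without the 2 libraries that stood apart 6 of the 9 muscle loci still met both limits. The biparental limit was lost at troponin T, Locus_C910360, at Locus_20998 and at flightin, Locus_C879690, with changes of 0.14, 0.27 and 0.04.

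A pair of further loci are described by Drosophila gene numbers that stand for muscle proteins but carry none of the words of the list. Locus_C872082 is similar to CG32019, the Drosophila bent gene, which encodes projectin. Locus_C872082 had 2033 and 2378 normalised reads in caring biparental females, against 751 and 1229.6 in their controls, and 602 and 833 in caring uniparental females, against 1770.0 and 2092 in their controls. The groups did not overlap in either condition, and both limits were met with each of the 8 libraries left out. Locus_C904062 is similar to CG30084, the Drosophila Zasp52 gene, which encodes a Z disc protein with PDZ and LIM domains, and had changes of 0.40 and -1.19. Without the 2 libraries that stood apart its changes were 0.29 and -0.86, so it missed the biparental limit.

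Ribosomal proteins L39, S21e and S17e were 3 of the 5 measured loci of the ribosomal list, which was drawn from descriptions of the study's changed loci. Locus_C820806, ribosomal protein L39, had 4786 and 3684 normalised reads in caring biparental females, against 1078 and 3266 in their controls, and 2104 and 2218 in caring uniparental females, against 3829 and 5749.6 in their controls. Locus_35655, similar to ribosomal protein S21e of the small subunit, had 1482 and 1634 normalised reads in caring biparental females, against 455 and 1239.6 in their controls, and 1613 and 1477 in caring uniparental females, against 2943 and 4410.0 in their controls. Caring lay above control in biparental and below control in uniparental females without overlap at both loci. Biparental control replicate 1 was the lowest of these 8 libraries at each. Locus_C885832, ribosomal protein S17e, had 9188 and 15814 normalised reads in caring biparental females, against 4309 and 12056 in their controls, and 4466 and 4181 in caring uniparental females, against 7889 and 11876 in their controls. Its biparental groups overlapped. All 3 still met both limits without the 2 libraries that stood apart, which do not include biparental control replicate 1. With each of the 8 caring and control female libraries left out in turn, 2 of the 3 met them every time. At Locus_C885832 biparental control replicate 2 lay between the caring libraries, and only control replicate 1 lay below both. The changes of the 3 loci in caring biparental males were -0.32, -0.47 and -0.61. In uniparental males the changes were -0.34, -0.42 and -0.65.

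Enzymes of energy metabolism included Locus_C848847, similar to succinate dehydrogenase subunit A of the citric acid cycle. Locus_C848847 had 467 and 512 normalised reads in caring biparental females, against 187 and 239 in their controls, and 403 and 477 in caring uniparental females, against 564 and 829 in their controls. The groups did not overlap in either condition, and both limits held with each of the 8 libraries left out. Locus_C890330, similar to the mitochondrially encoded NADH dehydrogenase subunit 1 of the respiratory chain, had 526 and 562 normalised reads in caring biparental females, against 212 and 266 in their controls, and 2941 and 2509.6 in caring uniparental females, against 3196 and 3991 in their controls. This locus was lower in every biparental than in every uniparental library of these females. Locus_49822, similar to glucose dehydrogenase, which oxidises glucose, had changes of 0.86 and -1.09. Locus_C826126, similar to a sodium calcium exchanger, which extrudes calcium from cells, had changes of 0.32 and -1.36. Its mean over the 12 female libraries was 18.5 normalised reads, so it passed the read limit only through the males. Without the 2 libraries that stood apart the changes were 1.24 and -0.23 at Locus_C890330, 0.25 and -0.21 at Locus_49822 and 0.22 and -1.32 at Locus_C826126. None of these loci then met both limits.

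Cuticle and chitin loci were uneven between replicates. Locus_10062, a putative cuticle protein, had 668 and 247 normalised reads in caring biparental females, against 265 and 14.5 in their controls, and 18.2 and 20.6 in caring uniparental females, against 23.4 and 31.1 in their controls. The biparental controls lay further apart than the caring libraries did, and the biparental groups overlapped. Locus_26024, similar to cuticular protein Ld-CP1v1, had changes of 0.84 and -0.96, and neither cuticle locus met both limits without the 2 libraries that stood apart. Locus_17764 and Locus_74494, both similar to a brain chitinase, a chitin-degrading enzyme, had changes of 1.42 and 0.55 in biparental females and -1.93 and -1.72 in uniparental females. Their means were 21.9 and 29.2 normalised reads over all 24 libraries but 9.29 and 10.5 over the 12 female ones. Both thus passed the read limit only through the males. Without the 2 libraries that stood apart the change of Locus_74494 in biparental females was -0.25.

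The immune and protease lists gave 1 locus each. Locus_35187, similar to pro-phenol oxidase subunit 1, the zymogen of an enzyme that forms melanin in wounds and against microbes, had 2522 and 3102 normalised reads in caring biparental females, against 2815 and 1788 in their controls, and 1952 and 1752 in caring uniparental females, against 4494 and 4528 in their controls. Its uniparental groups did not overlap and its biparental groups did. Locus_27276, similar to a serine protease, had 15.9 and 14.5 normalised reads in caring biparental females, against 3.88 and 8.68 in their controls, and 12.4 and 26.1 in caring uniparental females, against 37.7 and 60.2 in their controls. Neither pair of groups overlapped, at low counts in all 8 libraries. None of the 28 cytochrome P450, 17 lipid enzyme, 19 chemosensory or 14 yolk and storage loci on the lists was among the 100. These lists were drawn from descriptions of the study's changed loci. Of the 100 loci 45 had no description, so further members of these families could be missed. Locus_53005, Locus_C878298, Locus_C871068, Locus_20646, Locus_53212 and Locus_80435 are described only by gene numbers or as an unnamed product, with changes of 0.60, 0.47, 1.72, 1.21, 1.08 and 1.84 in biparental females and -1.41, -1.12, -0.53, -0.78, -1.51 and -0.93 in uniparental females.

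No description was given for 45 loci, of which 31 had no overlap in either condition, 29 still met both limits without the 2 libraries that stood apart, and 23 met them with each of the 8 libraries left out. Of the 22 loci with a hypothetical, unknown or unnamed product, 6 had no overlap, 7 still met both limits and 3 met them each time. Locus_72725 had 27230.4 and 26771 normalised reads in caring biparental females, against 12547 and 16008 in their controls, and 6543 and 6191 in caring uniparental females, against 8773 and 12088 in their controls. Locus_C868886 had 21123 and 29083 normalised reads in caring biparental females, against 12540.1 and 22953 in their controls, and 5953 and 6179 in caring uniparental females, against 8884 and 16018 in their controls. Locus_C875736, a hypothetical protein, had 42304 and 25274 normalised reads in caring biparental females, against 24206 and 20404 in their controls, and 11220.2 and 11288 in caring uniparental females, against 22492 and 36784 in their controls. These were the most abundant loci without a protein named here. The groups were apart in both conditions at Locus_72725 and Locus_C875736 but overlapped in biparental females at Locus_C868886. Without the 2 libraries that stood apart the change of Locus_C875736 in biparental females was 0.19, under the limit.

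Caring males allow the question whether the same loci also moved in opposite directions in the other sex, in libraries that entered the choice only through the size factors and the read limit. The median change was 0.06 in biparental males and −0.37 in uniparental males, where all 8491 loci had medians of −0.01 and 0.00. The change was above 0 in biparental males at 55 of the 100 loci, against 48.9% of all loci, and below 0 in uniparental males at 80, against 49.9%. It was above 0 in biparental and below 0 in uniparental males at 38 loci, against 15.7% of all loci, and the reverse at 3, against 16.9%. Libraries did not overlap in both male comparisons, with biparental caring higher and uniparental caring lower, at 3 loci, against 1.78% of all loci. Among the 88 loci with a mean of at least 20 normalised reads over the 8 caring and control female libraries, a limit added after the values were seen, the medians were 0.07 and −0.35 and 34 loci moved in opposite directions, against 15.6% of the 8414 loci past that limit. The loci share these libraries and their depth, so the shares are a description.

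By the main test, no locus of the 100 was differentially expressed in caring against control males. In biparental males the quasi-likelihood test of edgeR, adjusted by Benjamini-Hochberg over all loci tested, called 0 of the 100, where 0.0207% of the 9648 loci tested were called. By that test 8 of the 100 had an unadjusted p under 0.05, against 7.82% of all loci. The likelihood ratio test and DESeq2 also called 0. In uniparental males the quasi-likelihood test called 0 of the 100, where 5% of all loci were called. An unadjusted p under 0.05 was found at 16 of the 100, against 20.5% of all loci. The likelihood ratio test called 1 of the 100, Locus_54386, and DESeq2 called 2, Locus_35187 and Locus_C879690, all lower. The test of the difference between the changes, biparental minus uniparental males, called 0 of the 100 and 0% of all loci, by the quasi-likelihood test and both other tools. By the quasi-likelihood test 8 of the 100 had an unadjusted p under 0.05, against 5.78% of all loci. The fitted difference was positive at 84 loci, with a median of 0.50, against a median of 0.01 over all loci. The fitted change in biparental males was positive at 71 loci, against 48.2% of all loci, where the means of log2 counts gave 55. In uniparental males the fitted change was negative at 78 loci, against 49.9% of all loci. The count in biparental males thus depended on the measure.

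The male medians depended on single libraries. Without replicate 1 of the caring biparental males the median in biparental males was −0.13 and 25 loci moved in opposite directions, and without replicate 2 it was 0.37 and 59 loci did. Without replicate 2 of the uniparental control males the median in uniparental males was −0.12 and 23 loci moved in opposite directions. Among the 54 loci that met both female limits without the 2 female libraries that stood apart, the male medians were 0.16 in biparental and −0.24 in uniparental males, and 25 moved in opposite directions. Among the other 46 they were −0.04 and −0.58, and 13 did.

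**Figure D4:**
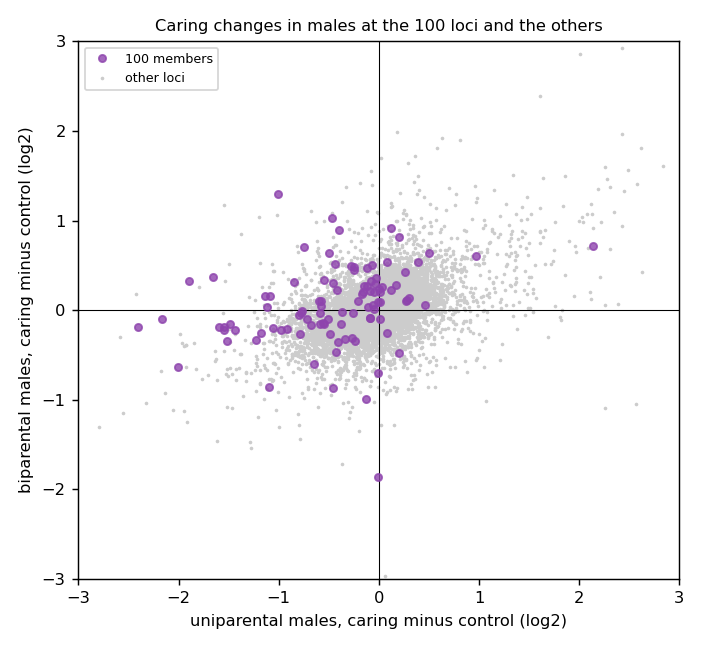
Each point is a locus, placed by caring minus control in log2 normalised count in uniparental males on the horizontal axis and in biparental males on the vertical axis. The 100 loci are purple and 8391 other loci grey, with 42 of the grey loci outside the limits of ±3; the purple points lie mostly left of 0, with 38 in the upper left.

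In males the limits used in females were passed by 10 of the 100 loci, against 1.24% of all loci. Locus_C872082, similar to CG32019, had 3113 and 2806 normalised reads in caring biparental males, against 1923 and 2233 in their controls, and 1682 and 2284 in caring uniparental males, against 2309.6 and 3069 in their controls. Caring lay above control in biparental and below control in uniparental males without overlap. Locus_C900240, which matches only a beetle genome sequence, had 96.8 and 107 normalised reads in caring biparental males, against 26.5 and 63.4 in their controls, and 14.8 and 13.1 in caring uniparental males, against 21.2 and 39.2 in their controls. Locus_29561, which has no description, had 4508 and 2919.6 normalised reads in caring biparental males, against 1871 and 2918 in their controls, and 6316 and 6788 in caring uniparental males, against 7855 and 10827 in their controls. These groups did not overlap either, although at Locus_29561 the caring biparental replicate 2 exceeded the higher control by a few reads. The fitted differences between the male changes were 0.94 ± 0.42, 2.28 ± 0.65 and 1.14 ± 0.49 (log2, SE), with adjusted p of 0.837, 0.705 and 0.834. The other 7 were Locus_17764, Locus_64094, Locus_15506, Locus_C854937, Locus_10050, Locus_C890586 and Locus_C903158, with mean counts of 21.9 to 66.3 normalised reads. Over the 12 female libraries Locus_17764, Locus_64094 and Locus_15506 averaged 9.29, 13.9 and 12.5 normalised reads. They thus passed the read limit only through the males, whose libraries are used here. Locus_64094 shares a top hit with Locus_14040, another of the 100.

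Social condition went with large differences in level at these loci, as at many others. In males, 44 of the 100 differed between biparental and uniparental controls, 51 between caring beetles and 45 between post-caring beetles, where 41.9%, 46.8% and 43.6% of all loci did. In post-caring females, which entered the choice of loci only through the size factors and the read limit, 47 differed, where 40.5% of all loci did. Without replicate 1 of the uniparental post-caring females the last count was 31. In these 4 comparisons 11, 24, 15 and 17 of the 100 were higher in biparental beetles, where 19.2%, 21.8%, 20.3% and 19.8% of all loci were, and 33, 27, 30 and 30 were lower, where 22.7%, 25%, 23.4% and 20.7% were. Across all 4 comparisons 7 loci were higher and 24 lower in biparental beetles each time, where 10.6% and 13.1% of all loci were. Of the 100, 37 were called in none, where 33.7% of all loci were, and 0 were called in opposite directions, where 0.238% were. The shares called in either direction were near those of all loci.

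Locus_C838159, which has no description, was higher and Locus_C822162 lower in biparental beetles in all 4 comparisons. Locus_C838159 had 218 and 172 normalised reads in caring biparental males, against 29.5 and 40.7 in caring uniparental males, a difference of 2.43 ± 0.32 (log2, SE, adjusted p = 2.54e-05). Locus_C822162, also without a description, had 125 and 83.6 in caring biparental males, against 659 and 834 in caring uniparental males, a difference of -2.88 ± 0.22 (adjusted p = 1.84e-07). In each case the caring male libraries of the conditions lay far apart. For kettin, Locus_C856308, the difference was -2.25 ± 0.24 in caring males and -2.27 ± 0.25 in post-caring females. The difference was -3.17 ± 0.36 in control males for NADH dehydrogenase subunit 1, Locus_C890330. Locus_C818152, Locus_9015, Locus_72725, Locus_C868886, Locus_C887210, Locus_C900240 and Locus_64094 were among the 5 strongest of a comparison with higher levels in biparental beetles, and Locus_C836599, Locus_C812330, Locus_53212, Locus_C870478 and Locus_54491 among those with lower levels.

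Males had higher levels than females at most of the 100 loci. The comparison was added after the values were seen and used only post-caring beetles, none of which entered the female changes that chose the loci. The read limit did use them, and the 14 loci that passed it only through the males had to be higher in males over all libraries. The mean of both male groups minus the mean of both female groups was positive at 92 of the 100 loci, with a median of 0.93, against a median of −0.03 over all loci. In the edgeR fit 41 were called higher in males and 0 lower, where 10.8% of all loci were called higher and 8.4% lower, and 63 had an unadjusted p under 0.05 in either direction, against 32.7% of all loci. Among the 88 loci with a mean of at least 20 normalised reads over the 8 caring and control female libraries the difference was positive at 80, with a median of 0.73, and 34 were called higher and 0 lower, where 11.2% of the 8499 loci past that limit were called higher and 9.34% lower. The likelihood ratio test and DESeq2 called 49 each. Without replicate 1 of the uniparental post-caring females the count was 25. Of the 184 loci with the opposite female pattern, 36 were called lower in males and 0 higher. Of the muscle loci 8 of 9 were called higher in males, of the loci with no description 11 of 45, and of the ribosomal loci 0 of 3.

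Tropomyosin 1, Locus_C893296, had 59298 and 39173 normalised reads in post-caring biparental males and 45221 and 59406 in post-caring uniparental males, against 15473 and 17823 and 15201 and 19941 in the post-caring females of those conditions. Every male library lay above every female library, with a difference of 1.55 ± 0.19 (log2, SE, adjusted p = 4.57e-05). Kettin, Locus_C856308, had 329.8 and 317 normalised reads in post-caring biparental males and 1958 and 1668 in post-caring uniparental males, against 116 and 142 and 507 and 734 in the post-caring females of those conditions. Males were higher within each condition, with a difference of 1.42 ± 0.17 (adjusted p = 3.39e-05), though biparental males were below uniparental females. Locus_C910360, troponin T, had a difference of 1.30 ± 0.22, Locus_C839077, a hypothetical protein, 1.21 ± 0.17, and the undescribed Locus_C822162 0.89 ± 0.15. Locus_C888540 had 20144 and 807 normalised reads in post-caring biparental males and 2376 and 2899 in post-caring uniparental males, against 181 and 89 and 154 and 151 in the post-caring females of those conditions. All male libraries were above all female libraries, and biparental males differed more between replicates than any other post-caring group. The summed muscle transcripts were 256900 to 290951 CPM in post-caring biparental males and 217554 to 240928 in post-caring uniparental males, against 105312 to 127883 and 88441 to 106102 in the post-caring females. The part of muscle tissue in the sex difference was not tested.

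**Figure D5:**
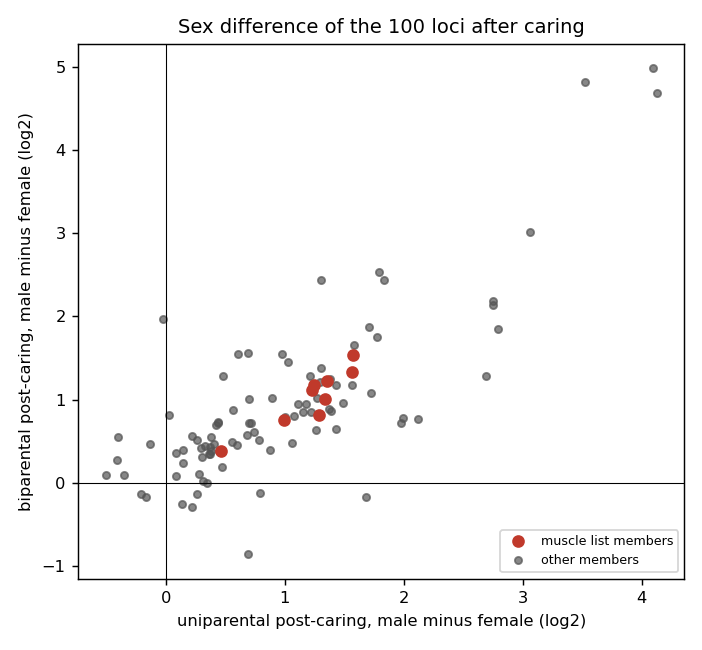
Each point is 1 of the 100 loci, placed by the male minus female difference in log2 normalised count after caring, in uniparental beetles on the horizontal axis and in biparental beetles on the vertical axis. Muscle loci are red, and the 92 loci with higher levels in males in uniparental beetles and 91 in biparental beetles lie right of and above the lines at 0.

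After caring, the median level in females lay between those of the other states. The median of the 100 loci for post-caring minus control was 0.43 in biparental females, with 76 above 0, and −0.45 in uniparental females, with 82 below 0, against medians of 0.01 and 0.01 over all loci. These differences share the control libraries with the choice of loci, so part of each is fixed by it. At ribosomal protein L39, Locus_C820806, post-caring females had 3308 and 3977 normalised reads in biparental and 6017 and 4621 in uniparental conditions. At tropomyosin 1 they had 15473 and 17823 and 15201 and 19941. Tropomyosin 1 did not follow the median in biparental females, where both post-caring libraries were below both controls, and at ribosomal protein L39 both uniparental libraries were above both biparental ones.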

How the data were processed

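Reads from 24 head libraries were trimmed (Trimmomatic 0.30) and aligned with Bowtie2 and RSEM to a transcriptome assembly of this beetle by the authors, who deposited RSEM expected counts per locus, 1 table per library. No genome was used and no sequences are shown. Expected counts were rounded to whole numbers for the tests, while the selection rule and the normalised counts used them unrounded. Groups and replicate numbers came from the sample titles, and the names of the deposited tables give the other replicate number for 4 male control libraries, which bears only on which male control library is called replicate 1 or 2 and on the replicate block. Median-of-ratios size factors gave the normalised counts of the selection rule (pseudocount 1). Tests used edgeR 4.0.16 in R 4.3.3 (quasi-likelihood, TMM, filterByExpr with a minimum count of 10, 12 group means, 12 residual degrees of freedom), with Benjamini-Hochberg adjustment at 0.05 over the 9648 loci left after 1755 were removed, two-sided. DESeq2 1.42.0, the likelihood ratio test of the study, other scalings and left-out libraries were alternatives. The scripts were tested on simulated data. With 2 pools per group, p-values measure the spread between pools. The 100 loci and the lists were chosen with earlier results of these data known. Named loci are the 10 with the largest difference, the 5 most abundant, those next to each limit, the 5 strongest of each direction in a comparison, those with a description that names a protein, and those passing the same limits in males; others are named where a small count or a library that stood apart pointed to them.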

Additional observations from a re-analysis of the deposited data

Results flagged for a closer look

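At 3 of the 100 loci the changes in males ran in opposite directions between the social conditions, with every caring biparental library above and every caring uniparental library below its controls. The biparental minus uniparental change was 0.95 at Locus_C872082, 2.29 at Locus_C900240 and 1.13 at Locus_29561 on the log2 scale. By separation of the libraries alone the difference was not tested, and the edgeR quasi-likelihood test of the difference called 0 of the 100 loci. The same separation held at 1.78% of all loci.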

How the results depend on the processing

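The counts of loci called in males and females kept their size under most alternatives. For caring against control in uniparental males, where the count was 0, the likelihood ratio test called 1 locus and DESeq2 called 2, and leaving out single libraries gave 0 to 2, with 2 loci, Locus_35187 and Locus_54386, called without either biparental male control library. Leaving out single libraries gave 34 to 48 of the 100 loci for the social difference in control males, 40 to 55 in caring males, 33 to 48 in post-caring males and 31 to 44 in post-caring females. It gave 25 to 46 for males against females after caring, and 0 for the changes in biparental males and for the difference between the male changes. A library left alone in its group is assumed to vary like the others. The number of loci meeting both female limits was 242 to 467 with single libraries left out, the highest without replicate 1 of the uniparental female controls, 254 without both libraries that stood apart, 302 with the read limit set on the 8 caring and control female libraries, where 88 of the 100 loci stayed among the 100 with the largest difference, and 254 to 346 under other pseudocounts, read limits and scaling. Deviations of libraries with equal replicate numbers in the titles correlated above 0.1 in 25 of 66 pairs of groups and below -0.1 in 12. The median correlation was 0.05. These values do not settle whether the numbers pair the libraries, and the main test did not pair them. With the replicate number as a block the counts were 0, 0 and 0 for the male changes, 46, 52, 46 and 46 for the social differences and 43 for the sex difference. With 2 pools of heads per group, small changes of sparse loci cannot be resolved, and social condition cannot be told apart from how its libraries were made.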
